A study of Mus musculus with 6 samples.

Results

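The genes described here are 39 named members of the hypoxia response and of glycolysis, chosen by name. They match 40 of the 54532 rows of the gene count table, because Aldoa is listed under 2 identifiers. Of the 40 rows, 38 passed the filter on low counts and were tested, among 13472 tested genes. Epas1 and Aldoc did not pass, at means of 0.181 and 0.263 CPM, a count scaled to its library total. A mean of 100 CPM or more was reached by 26 of the rows. The members are described by hairpin group, by the number that each title carries, and by how each enzyme's RNA is divided among its paralogs.

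RNA was sequenced from 6 libraries of Glu-tag cells, a mouse enteroendocrine tumour line labelled as small intestine. The 3 shIRS2 libraries came from cells labelled IRS2 Knockdown, with a stable hairpin against the insulin receptor substrate gene Irs2, and the 3 shControl libraries from cells labelled WT with a control hairpin. No label gives a treatment, an oxygen tension, a medium or a clone number, so all 6 libraries are taken as untreated cultures of 1 line. The series asks which transcripts change when Irs2 is silenced. No label says what the numbers 1 to 3 mark.

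Library totals ran from 14991019 to 19790073 counts. Irs2 itself was no lower in libraries labelled shIRS2 than in the shControl libraries, at 31.4, 28.6 and 38.7 CPM in shIRS2 libraries 1, 2 and 3, against 31.6, 22.7 and 34.3 CPM in shControl libraries 1, 2 and 3. The ranges overlapped, so a direction by hairpin group rests on the labels alone. Of 22 enteroendocrine markers, 8 had no count in any library, among them Gcg, Chga, Neurod1 and Pcsk1, and 4 averaged 1 CPM or more (Pax6, Nkx2-2, Etv1 and Cpe). Among epithelial markers Krt8 stood at 376 to 415 CPM while Cdx2 had no count, and among fibroblast markers Col3a1 stood at 534 to 870.1 CPM while Thy1 and Postn had none. Gcg, Chga, Neurod1 and Pcsk1 were therefore not detected in libraries labelled as this endocrine line. The 22 enteroendocrine markers together summed to 336 to 385 CPM in the shIRS2 libraries and 317 to 358 CPM in the shControl libraries.

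Cells sense oxygen through the HIF transcription factors, in which an unstable alpha subunit pairs with the constant partner Arnt. In the presence of oxygen, prolyl hydroxylases of the Egln family mark the alpha subunit, and the Vhl ubiquitin ligase then directs its destruction. When oxygen is scarce the alpha subunit persists and the pair binds short DNA elements near target genes, many of which encode glucose transporters, glycolytic enzymes, angiogenic factors and the hydroxylases themselves. Glycolysis turns glucose into pyruvate in the cytosol, and most of its steps are carried out by families of paralogous enzymes that differ between tissues. Intestinal endocrine cells take up and burn glucose as part of nutrient sensing.

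The core of the element bound by HIF is ACGTG or GCGTG, and both were searched on both strands in the RefSeq promoter windows, which span 250 bases before to 50 bases after an annotated start in GRCm38.p6. Windows were matched by symbol for 35 members and numbered 51. ACGTG was found in 26 of these (51.0%) and either motif in 39 (76.5%), against 19.6% and 43.8% of all 32851 windows. Many members are known as HIF targets, so this share describes the choice of genes, and a match is no evidence of binding. A missing match does not show that no element lies outside the window. Below, windows chosen with the responses known are shown 5′ to 3′ along the gene. They belong to 3 members lower in the libraries numbered 2 (Slc2a1, Bnip3 and P4ha2) and 1 lower member without a match (Eno2). The other 2 belong to members with matches that did not pass the test (Pgk1 and Ldha). Capitals mark every match, written as ACGTG or GCGTG or as the reverse complements CACGT or CACGC. In CACGTG the 2 strands overlap and count as 2 positions. The windows are Slc2a1 at chr4:119108495-119108794, plus strand, Bnip3 at chr7:138909457-138909756, minus strand, P4ha2 at chr11:54100674-54100973, plus strand, Eno2 at chr6:124769624-124769923, minus strand, Pgk1 at chrX:106186850-106187149, plus strand, and the first of 2 for Ldha at chr7:46845554-46845853, plus strand.
Slc2a1: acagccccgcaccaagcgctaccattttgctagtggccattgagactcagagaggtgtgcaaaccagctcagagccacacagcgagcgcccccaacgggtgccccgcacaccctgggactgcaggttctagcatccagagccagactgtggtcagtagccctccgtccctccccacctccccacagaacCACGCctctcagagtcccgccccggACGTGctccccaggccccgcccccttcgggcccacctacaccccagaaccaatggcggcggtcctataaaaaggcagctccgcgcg
Bnip3: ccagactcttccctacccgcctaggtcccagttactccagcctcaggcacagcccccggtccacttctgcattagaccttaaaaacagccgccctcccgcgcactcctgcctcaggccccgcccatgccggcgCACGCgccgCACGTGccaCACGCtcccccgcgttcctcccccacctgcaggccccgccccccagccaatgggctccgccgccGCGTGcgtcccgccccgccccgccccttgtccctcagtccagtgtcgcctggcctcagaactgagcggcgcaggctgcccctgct
P4ha2: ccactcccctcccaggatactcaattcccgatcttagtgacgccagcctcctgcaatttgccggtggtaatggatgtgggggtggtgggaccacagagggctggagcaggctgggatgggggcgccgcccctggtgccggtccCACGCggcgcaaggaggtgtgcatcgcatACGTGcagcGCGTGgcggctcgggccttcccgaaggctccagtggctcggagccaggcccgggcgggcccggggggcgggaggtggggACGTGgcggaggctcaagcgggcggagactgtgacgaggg
Eno2: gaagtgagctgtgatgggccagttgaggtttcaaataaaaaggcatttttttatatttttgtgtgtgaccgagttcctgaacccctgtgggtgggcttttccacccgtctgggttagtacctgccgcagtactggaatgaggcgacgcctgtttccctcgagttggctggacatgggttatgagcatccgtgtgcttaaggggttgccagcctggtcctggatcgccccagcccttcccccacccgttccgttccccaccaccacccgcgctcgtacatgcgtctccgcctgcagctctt
Pgk1: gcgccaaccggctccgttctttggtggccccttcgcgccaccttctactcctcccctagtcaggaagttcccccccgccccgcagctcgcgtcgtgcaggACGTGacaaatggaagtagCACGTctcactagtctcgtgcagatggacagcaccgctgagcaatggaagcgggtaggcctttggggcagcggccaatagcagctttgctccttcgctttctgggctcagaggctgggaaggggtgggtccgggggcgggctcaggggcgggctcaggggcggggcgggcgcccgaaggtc
Ldha: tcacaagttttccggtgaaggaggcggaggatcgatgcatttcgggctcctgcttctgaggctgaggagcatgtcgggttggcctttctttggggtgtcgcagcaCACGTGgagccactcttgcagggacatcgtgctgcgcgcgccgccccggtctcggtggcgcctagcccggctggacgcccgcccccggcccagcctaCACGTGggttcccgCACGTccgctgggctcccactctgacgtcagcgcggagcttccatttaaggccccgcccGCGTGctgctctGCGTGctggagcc
The Ldha window held 5 positions of ACGTG, the most of these 6, and the Eno2 window held neither motif.

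Levels were compared between genes per length, as the deposited FPKM (fragments per kilobase of listed gene length, scaled to the library total). The later steps of glycolysis were the most abundant part of the module. Pkm, which makes pyruvate and ATP in the last step, led all members at 1039, 1022 and 1161 FPKM in shIRS2 libraries 1, 2 and 3, against 1031, 1043 and 1104 FPKM in shControl libraries 1, 2 and 3. Pgk1, the first ATP-forming enzyme, stood at 904, 865 and 979 FPKM in shIRS2 libraries 1, 2 and 3, against 869, 885 and 1013 FPKM in shControl libraries 1, 2 and 3. Pkm exceeded Pgk1 in each of the 6 libraries, and its lowest library lay above the highest for Pgk1.

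Eno1, the enolase, followed at 652, 698 and 721 FPKM in shIRS2 libraries 1, 2 and 3, against 685, 655 and 682 FPKM in shControl libraries 1, 2 and 3. Ldha, which reduces pyruvate to lactate, stood at 558, 592 and 628 FPKM in shIRS2 libraries 1, 2 and 3, against 616, 588 and 584 FPKM in shControl libraries 1, 2 and 3. Pgam1, the phosphoglycerate mutase, stood at 410.1, 437 and 459 FPKM in shIRS2 libraries 1, 2 and 3, against 436, 405 and 437 FPKM in shControl libraries 1, 2 and 3. The ranges of Eno1, Ldha and Pgam1 did not overlap each other. Aldoa, the aldolase, stood at 374, 352 and 393 FPKM in shIRS2 libraries 1, 2 and 3, against 391, 336 and 395 FPKM in shControl libraries 1, 2 and 3. Tpi1, which interconverts the aldolase products, stood at 279, 269 and 317 FPKM in shIRS2 libraries 1, 2 and 3, against 277, 266 and 292 FPKM in shControl libraries 1, 2 and 3. Both had the same order in every library, with Aldoa above Tpi1. For these 7 genes the SD over all 6 libraries was at most 61.9 FPKM. The order below Pkm holds only by the listed length. With counts taken per kilobase of the principal coding transcript and scaled to the library total in the same way (an alternative chosen after seeing the data), Pkm stayed first at 2069.7 to 2401, Eno1 at 1725 to 1924 lay above Pgk1 at 1048 to 1256 and Ldha at 1053 to 1185, and Aldoa at 644 to 769.7 and Tpi1 at 452 to 546 lay above Pgam1 at 414 to 477 in every library.

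The steps before the aldolase were carried by lower levels under both gene lengths. Per kilobase of the principal coding transcript Gpi1 averaged 186, against 446 for Pgam1, the lowest of the genes above by that measure. Gpi1, the glucose-6-phosphate isomerase, averaged 82.9 ± 10.5 FPKM (SD, n = 6 libraries), Pfkl 44.9 ± 5.18 FPKM and Hk2 32.7 ± 2.08 FPKM. Hk2, an inducible hexokinase, stood at 35.6, 32.6 and 31.1 FPKM in shIRS2 libraries 1, 2 and 3, against 29.8, 33.2 and 34.03 FPKM in shControl libraries 1, 2 and 3. Hk1, the widespread hexokinase, averaged 20.9 ± 1.40 FPKM. The export and diversion of pyruvate had 2 members at unlike levels. Slc16a3, the lactate exporter MCT4, stood at 105, 109 and 125 FPKM in shIRS2 libraries 1, 2 and 3, against 119.8, 111 and 113 FPKM in shControl libraries 1, 2 and 3. Pdk1, the kinase that switches off pyruvate dehydrogenase, averaged 24.2 ± 2.05 FPKM. Of the bifunctional regulators of phosphofructokinase, Pfkfb3 averaged 7.37 ± 1.14 FPKM and Pfkfb4 2.30 ± 0.195 FPKM.

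**Figure D1:**
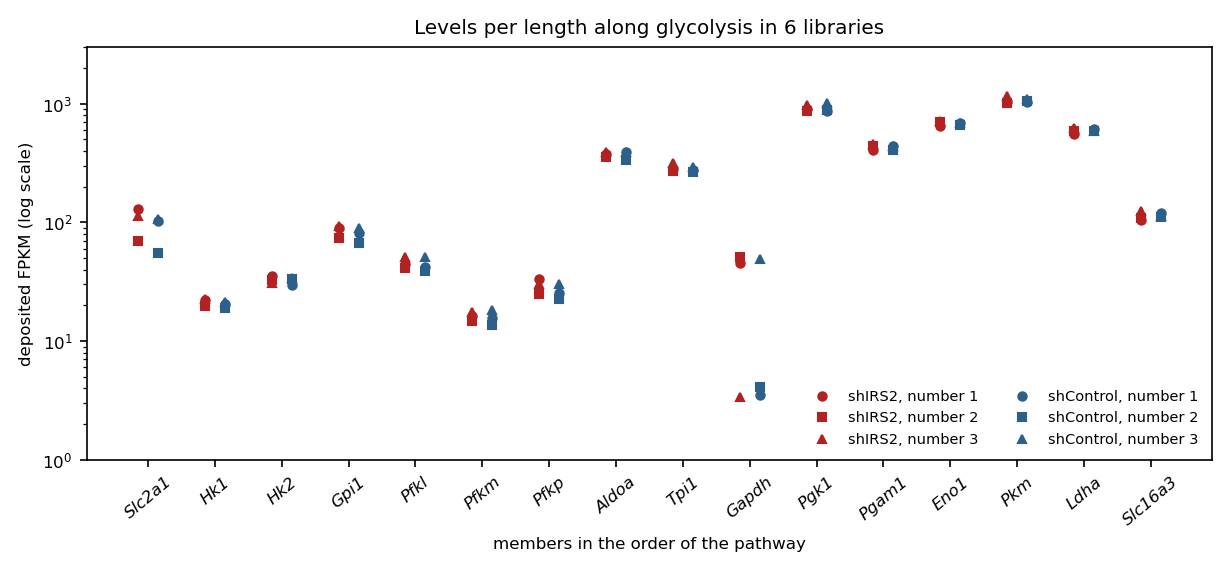
Deposited FPKM (log scale) of 16 members in the order of the pathway, from glucose entry to lactate export, with 1 point per library; red points are shIRS2 libraries, blue points shControl libraries, and the marker shape gives the library number. Most genes form a tight cluster of 6 points, Slc2a1 is lowest in both libraries numbered 2, and Gapdh lies at 3.38 to 50.9 FPKM in 2 separate levels.

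Among the regulators, Hif1a, the oxygen-labile alpha subunit, averaged 125 ± 17.3 FPKM, and its paralog Epas1 was near the floor at 0.0339 FPKM. Hif1a therefore made up 99.97% ± 0.0144 (SD) of the alpha subunit RNA over the 6 libraries. Arnt stood at 16.8, 14.7 and 16.8 FPKM in shIRS2 libraries 1, 2 and 3, against 17.5, 15.03 and 16.2 FPKM in shControl libraries 1, 2 and 3. Its share of the beta subunits was 99.6% ± 0.0884. Vhl averaged 10.5 ± 0.756 FPKM. Of the prolyl hydroxylases, Egln3, which HIF itself induces, held 65.8% ± 2.91, and Egln1, the main oxygen sensor in most tissues, held 27.3% ± 1.44. The rest of that family was Egln2.

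Isoform choice was close to exclusive at several steps. Slc2a1, the basal glucose transporter GLUT1, held 99.3% ± 0.343 of the RNA of 4 glucose transporters, and Slc2a3, a transporter typical of neurons, held 0.627% ± 0.328. Aldoa held 99.97% of the aldolases, Pgam1 98.9% of the mutases and Ldha 98.8% of the lactate dehydrogenases. Eno1 held 87.4% of the enolases by the listed length and 94.5% by the principal coding transcript. Eno3 held 6.77% and 3.07%, and Eno2, the enolase used as a neuroendocrine marker, 0.233% and 0.160%. Eno1b, whose transcript is nearly identical to that of Eno1, was counted apart at 5.60% and 2.24%, so the Eno1 share is uncertain. Ero1l, which reoxidises the disulfide machinery of the endoplasmic reticulum, held 95.2% against its paralog Ero1lb. Pkm was the pyruvate kinase with all but a trace of the counts, but its M1 and M2 splice forms share 1 row of the table and were not separated here.

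At other steps the choice was split, and there it depended on which gene length was used. By the listed length Hk2 held 60.8% and Hk1 38.8% of the hexokinases, while per length of the principal coding transcript Hk1 held 56.5% and Hk2 43.3%. The phosphofructokinases changed order in the same way. By the listed length Pfkl, the liver form, held 50.6%, Pfkp, the platelet form, 31.2%, and Pfkm, the muscle form, 18.1%. By the principal transcript Pfkp held 47.5%, Pfkl 42.6% and Pfkm 9.89%. The table lists 13401 bases for Pfkp and 8532 for Hk1, where the principal transcripts measure 4145 and 3851 bases. No leading form can be named for these 2 families.

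Among the other hypoxia targets, P4ha1, a catalytic subunit of collagen prolyl hydroxylase, stood at 47.4, 45.9 and 49.3 FPKM in shIRS2 libraries 1, 2 and 3, against 40.9, 41.4 and 50.4 FPKM in shControl libraries 1, 2 and 3. It held 75.7% of its family by the listed length and 53.5% by the principal transcript, with P4ha2 at 23.95% and 46.2%. Bnip3 and Bnip3l, the paired mitophagy receptors, held 49.5% and 50.5% by the listed length. By the principal transcript they held 51.5% and 48.5%, so no leading form can be named there either. Slc16a3 held 52.2% of the monocarboxylate transporters and Slc16a1 46.9%. Pdk3 exceeded Pdk1 in its family, at 58.5% and 41.4%. Vegfa, the main angiogenic ligand, held 42.6% by the listed length, level with its paralog Vegfb at 42.8%. By a principal transcript of only 654 bases Vegfa held 78.1%, with Vegfb at 16.9%.

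**Figure D2:**
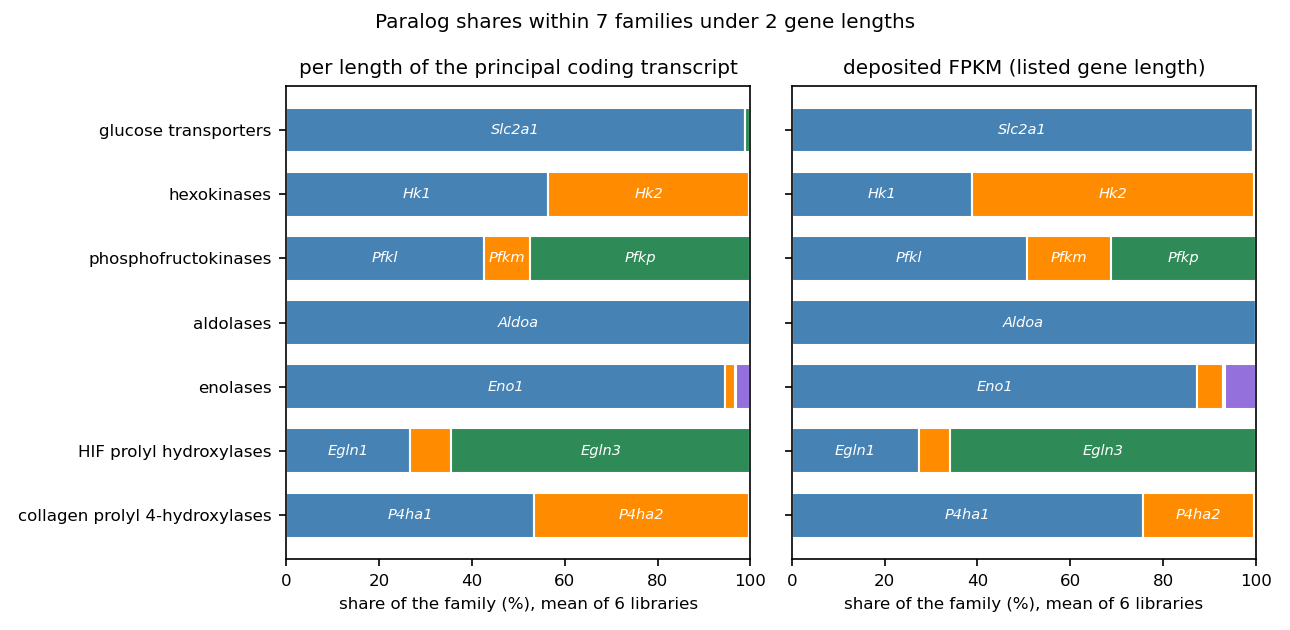
Mean share over 6 libraries (percent of the family) of each paralog in 7 families, per length of the principal coding transcript in the left panel and by deposited FPKM in the right panel. Slc2a1, Aldoa and Eno1 dominate under both lengths, whereas the larger hexokinase is Hk1 on the left and Hk2 on the right, and the largest phosphofructokinase is Pfkp on the left and Pfkl on the right.

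The leading paralogs did not separate the hairpin groups. In each of 21 families, taking the leading form by the listed length, the shIRS2 and shControl libraries overlapped, and an exact two-sided permutation test, which cannot go below p = 0.1 with 3 libraries against 3, gave adjusted p-values of 0.94 or more. Egln3 held 66.7% ± 3.19 in the shIRS2 libraries and 64.9% ± 2.94 in the shControl libraries (SD, n = 3 each). Over all 67 paralogs 4 (5.97%) had shares that did not overlap, of which Pfkm was the only member. Pfkm held 17.1%, 18.2% and 17.95% in shIRS2 libraries 1, 2 and 3, against 18.9%, 18.3% and 18.3% in shControl libraries 1, 2 and 3. All shIRS2 libraries lay below the shControl libraries, at the smallest p that the exact permutation test can give (p = 0.1), and the smallest adjusted p over all 67 paralogs was 0.977. Eno1b, an enolase outside the members, held 5.73% ± 0.174 in the shIRS2 libraries and 5.47% ± 0.0600 in the shControl libraries (SD, n = 3 each). Its transcript is 99.5% identical to that of Eno1 over 1736 aligned bases, so reads of the 2 genes may not be told apart. Pfkl held 49.99% ± 2.11 in the shIRS2 libraries and 51.3% ± 0.588 in the shControl libraries (SD, n = 3 each). Paired by number, the leading paralogs of 6 families had a difference of the same sign in all 3 pairs, and the exact sign-flip permutation test cannot go below p = 0.25. Without a group difference, 1 sign in all 3 pairs has that same probability in a family, and 6 of 21 families is near it.

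By hairpin group no member passed the test. Of 38 tested members 0 passed an adjusted p of 0.05 in edgeR's quasi-likelihood test, and over all 13472 genes 0% did. At an unadjusted p under 0.05 there were 0 members and 262 genes (1.94%), and DESeq2 and limma also called 0 members. The log2 fold change was positive for 27 members and negative for 11, with a median of 0.055 against -0.00030 over all genes. No member had groups that did not overlap, where 2.75% of tested genes had all shIRS2 libraries above and 3.77% all below the shControl libraries. Without Gapdh, the largest absolute log2 fold change was 0.27. The 95% interval lay within 2-fold in both directions for 35 members and within 1.5-fold for 25.

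The smallest p-value among members belonged to Pfkp, which averaged 395 ± 59.5 CPM in the shIRS2 libraries and 351 ± 53.3 CPM in the shControl libraries (SD, n = 3 each). Its log2 fold change was 0.18 (SE 0.131, adjusted p = 1.00). Hif1a stood at 929.6, 735 and 684 CPM in shIRS2 libraries 1, 2 and 3, against 725, 619 and 763 CPM in shControl libraries 1, 2 and 3. Only shIRS2 library 1 lay above all shControl libraries, and the log2 fold change was 0.17 (SE 0.123, adjusted p = 1.00). Car9, a membrane carbonic anhydrase that responds strongly to hypoxia in many cells, stood at 3.65, 2.43 and 3.45 CPM in shIRS2 libraries 1, 2 and 3, against 2.53, 2.63 and 2.77 CPM in shControl libraries 1, 2 and 3. At this level the counts were few and the groups overlapped, with a log2 fold change of 0.27 (SE 0.228, adjusted p = 1.00). Pfkfb4, a regulator of phosphofructokinase, stood at 10.4, 10.8 and 10.6 CPM in shIRS2 libraries 1, 2 and 3, against 12.9, 11.98 and 10.7 CPM in shControl libraries 1, 2 and 3. Its groups overlapped in 1 pair of libraries only, and its log2 fold change was -0.15 (SE 0.140, adjusted p = 1.00).

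With the number as a replicate block the spread was smaller, and still 0 members passed the adjusted threshold, against 0.00742% of all genes. At an unadjusted p under 0.05 there were 6 members (15.8%), all higher in the shIRS2 libraries, where 9.16% of all genes met that mark and 5.17% met it in the higher direction. Slc2a1 averaged 366 ± 113 CPM in the shIRS2 libraries and 315 ± 106 CPM in the shControl libraries (SD, n = 3 each). Its log2 ratio within the pairs numbered 1, 2 and 3 was 0.33, 0.32 and 0.077, and the blocked log2 fold change was 0.24 (unadjusted p = 0.00184, adjusted p = 0.263). The 3 pairs had the same sign, and the difference was smallest in the pair numbered 3. Bnip3 averaged 85.4 ± 25.3 CPM in the shIRS2 libraries and 74.9 ± 22.2 CPM in the shControl libraries (SD, n = 3 each), with ratios of 0.22, 0.20 and 0.18 and an adjusted p of 0.389. Egln3 averaged 347 ± 81.6 CPM in the shIRS2 libraries and 311 ± 73.9 CPM in the shControl libraries (SD, n = 3 each), with ratios of 0.24, 0.17 and 0.11 and an adjusted p of 0.390. Adm averaged 142 ± 39.9 CPM in the shIRS2 libraries and 122 ± 32.05 CPM in the shControl libraries (SD, n = 3 each), with ratios of 0.45, 0.34 and -0.079 and an adjusted p of 0.430. Pfkp had ratios of 0.40, 0.15 and -0.0019 and a blocked log2 fold change of 0.18 (adjusted p = 0.452). Ero1l had ratios of 0.56, 0.25 and -0.058 and a blocked log2 fold change of 0.25 (adjusted p = 0.483). For Adm, Pfkp and Ero1l the pair numbered 3 had the opposite sign, and the pair numbered 1 the largest ratio.

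The balance of signs depended on the pair. In the pair numbered 1, 28 of 38 members were higher in the shIRS2 library, with a median log2 ratio of 0.13. In the pair numbered 2 there were 26, with a median of 0.065. In the pair numbered 3 there were 16, with a median of -0.0068. Over all genes 50.02%, 49.79% and 50.83% were positive in the pairs numbered 1, 2 and 3. The members exceeded that share in the pairs numbered 1 and 2 only. Deviations from the group mean correlated at 0.167 within the pair numbered 1 and at 0.260 within the pair numbered 3. The crossed pairs of these numbers gave 0.199 and 0.189, so the pairing of libraries 1 and 3 is uncertain. The sign counts are therefore a description, and they were not tested. The summed level of 12 fibroblast markers, which ran from 1169 to 1337 CPM in the shIRS2 libraries and from 871 to 1329 CPM in the shControl libraries, was also nearly equal in the pair numbered 3, and its part in these values was not tested.

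By library number the module was divided. In both libraries numbered 2, Ndrg1, Ero1l, Vegfa, Slc2a1, Bnip3, P4ha2, Adm and Egln3 were lower than in the libraries numbered 1 and 3. Their log2 differences ran from -1.10 to -0.61, and they are the 8 members whose calls held in every alternative. Ankrd37 and Eno2, at -0.79 and -0.78, were called within the same range. Of the hypoxia targets, P4ha1, Higd1a and Car9 did not pass the test, nor did the members of lower glycolysis other than Eno2. The F test of the number called 17 of 38 members (44.7%), where it called 19.6% of all genes. Set against numbers 1 and 3, number 2 had 16 members lower (42.1%) where 11.9% of all genes were lower, and 1 member higher, Pfkfb3, where 11.6% were higher. A decrease of 1.5-fold or more was called for 10 members, against 3.02% of all genes. Both libraries numbered 2 lay below the other 4 for 25 of 38 members (65.8%), against 23.4% of all genes, and above for 2 members, against 16.7%. The median log2 difference was -0.21 over the members and -0.0040 over all genes. Each of the 17 calls had the same direction in both hairpin groups. The contrast that made the calls averages both groups, so this agreement is largely built in and is no added evidence.

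This contrast was taken because earlier results of these data had set number 2 apart, so its calls are a description of that difference. Without shControl library 2 or without shIRS2 library 2, 1 library stands for number 2, and part of the 17 calls was lost. Why they were lost was not tested. The 8 genes named first above, Ndrg1 to Egln3, are those that kept their calls in every leave-out and with every tool tried. Keeping the call is thus how they were set apart and is no added evidence. Irs2 was lower too, with a log2 difference of -0.38 (SE 0.0953, adjusted p = 0.0107). The share of counts on mitochondrial genes was 1.71% in shIRS2 library 2 and 1.63% in shControl library 2, against 1.61% and 1.44% in shIRS2 libraries 1 and 3 and 1.25% and 1.40% in shControl libraries 1 and 3, and its part in the result was not tested. In bulk RNA, fewer cells with a transcript and less of it per cell cannot be told apart.

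**Figure D3:**
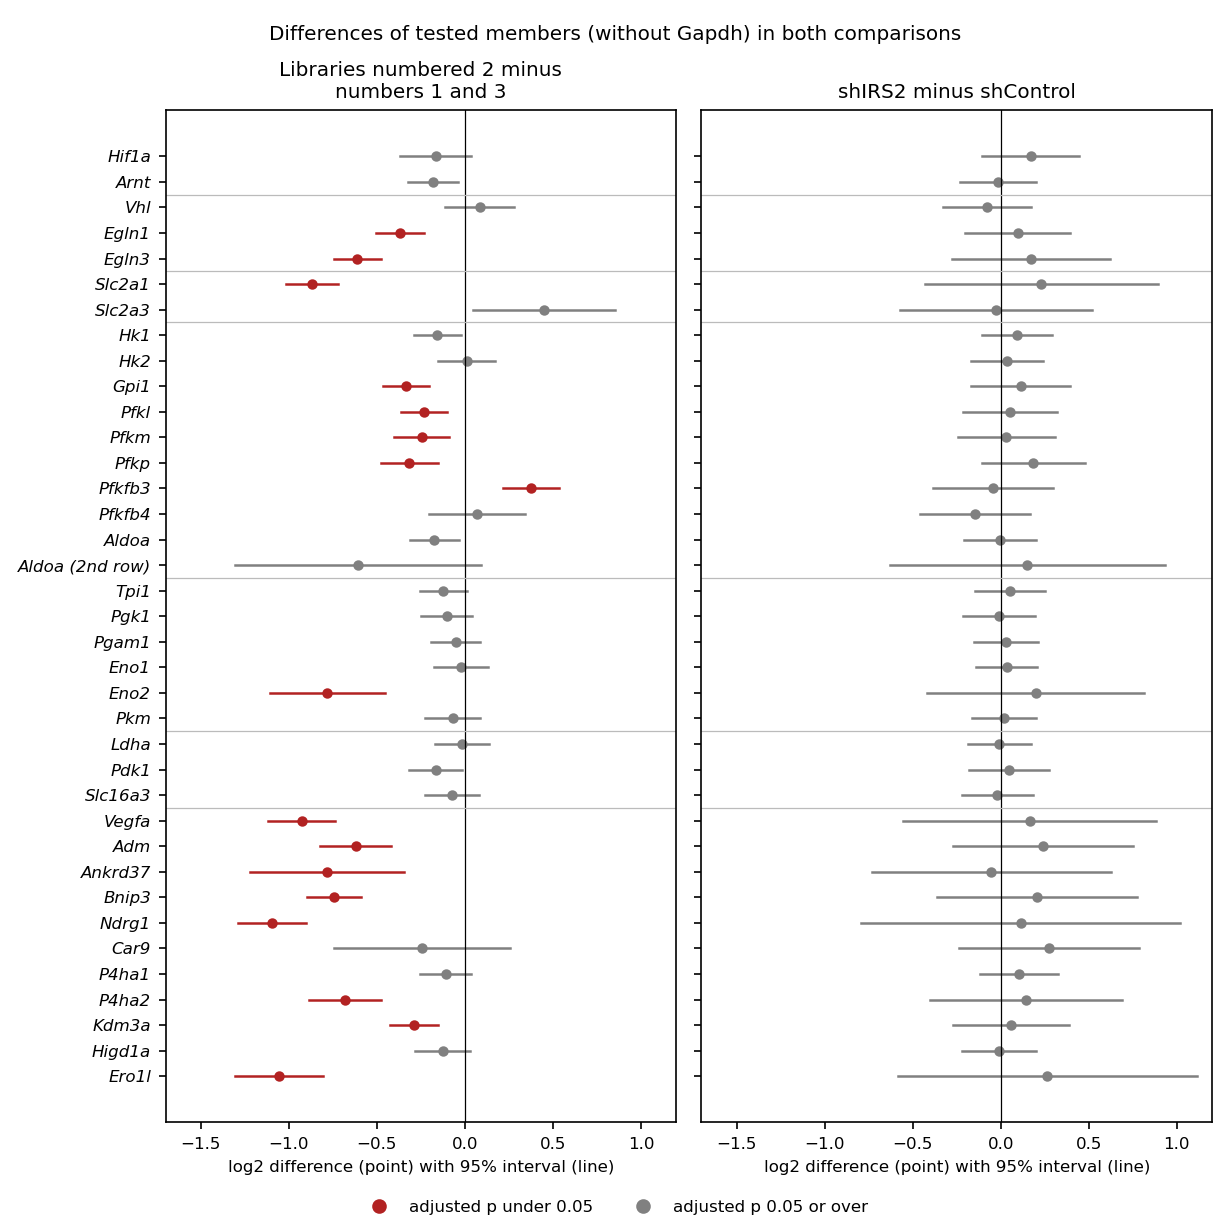
Log2 differences with 95% intervals from edgeR for 37 tested rows (Gapdh left out because its interval spans the axis), for libraries numbered 2 minus numbers 1 and 3 (left) and shIRS2 minus shControl (right); red marks an adjusted p under 0.05, and grey lines divide the roles from HIF factors at the top to other hypoxia targets at the bottom. The left panel holds 16 red points below 0 and 1 above, and the right panel holds none.

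The HIF subunits themselves did not pass the test by number. Hif1a had a log2 difference of -0.17 (SE 0.0922, adjusted p = 0.217) and Arnt of -0.18 (SE 0.0659, adjusted p = 0.0609). Their turnover enzymes divided. Egln3 stood at 253 CPM in shIRS2 library 2 and 226 CPM in shControl library 2, against 396 and 392 CPM in shIRS2 libraries 1 and 3 and 342 and 364 CPM in shControl libraries 1 and 3. Both libraries numbered 2 lay below the other 4, and the log2 difference was -0.61 (SE 0.0617, adjusted p = 1.93e-05). Egln1 stood at 157 CPM in shIRS2 library 2 and 143 CPM in shControl library 2, against 207 and 197 CPM in shIRS2 libraries 1 and 3 and 194 and 193 CPM in shControl libraries 1 and 3. It showed the same order with a smaller log2 difference of -0.37 (SE 0.0636, adjusted p = 0.000984), and the call was lost without shControl library 2 at -0.33. Vhl had a log2 difference of 0.084 (SE 0.0906, adjusted p = 0.547). Egln3 made up 63.01% in shIRS2 library 2 and 61.7% in shControl library 2, against 68.6% and 68.5% in shIRS2 libraries 1 and 3 and 65.6% and 67.5% in shControl libraries 1 and 3. That share was therefore lowest in both libraries numbered 2.

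Glucose entry showed the smallest p-value of the module. Slc2a1 (chr4:119108711-119137983, mm10) stood at 240.0 CPM in shIRS2 library 2 and 193 CPM in shControl library 2, against 457 and 401 CPM in shIRS2 libraries 1 and 3 and 371 and 381 CPM in shControl libraries 1 and 3. The groups of numbers did not overlap, and the log2 difference was -0.87 (SE 0.0695, adjusted p = 3.49e-06). The mean over numbers 1 and 3 was 1.86 times that of number 2. Slc2a3 was the minor transporter and had a positive log2 difference of 0.45 (SE 0.189, adjusted p = 0.101), which did not pass.

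In upper glycolysis 4 of 10 tested rows were lower and 1 was higher. Gpi1 stood at 472 CPM in shIRS2 library 2 and 431 CPM in shControl library 2, against 587 and 609.9 CPM in shIRS2 libraries 1 and 3 and 539 and 587 CPM in shControl libraries 1 and 3, a log2 difference of -0.33 (SE 0.0612, adjusted p = 0.00154). All 3 phosphofructokinases, which commit sugar to glycolysis, were lower. Pfkl stood at 271 CPM in shIRS2 library 2 and 259 CPM in shControl library 2, against 302 and 342 CPM in shIRS2 libraries 1 and 3 and 286 and 345 CPM in shControl libraries 1 and 3, a log2 difference of -0.23 (SE 0.0603, adjusted p = 0.0125). Pfkm stood at 48.6 CPM in shIRS2 library 2 and 45.7 CPM in shControl library 2, against 54.3 and 59.5 CPM in shIRS2 libraries 1 and 3 and 53.2 and 61.3 CPM in shControl libraries 1 and 3, a log2 difference of -0.24 (SE 0.0728, adjusted p = 0.0258). Pfkp stood at 331 CPM in shIRS2 library 2 and 301 CPM in shControl library 2, against 449 and 406 CPM in shIRS2 libraries 1 and 3 and 345 and 407 CPM in shControl libraries 1 and 3, a log2 difference of -0.31 (SE 0.0759, adjusted p = 0.00822). For each of these 4 genes both libraries numbered 2 were the lowest of the 6. Pfkfb3, which makes the activator of phosphofructokinase, went the other way, at 60.7 CPM in shIRS2 library 2 and 69.4 CPM in shControl library 2, against 55.3 and 48.3 CPM in shIRS2 libraries 1 and 3 and 52.9 and 48.4 CPM in shControl libraries 1 and 3. Its log2 difference was 0.38 (SE 0.0750, adjusted p = 0.00256). The calls for Gpi1, Pfkl, Pfkm and Pfkp were lost when either library numbered 2 was left out, and that for Pfkfb3 without shControl library 2, where the log2 differences were -0.35 and -0.31 for Gpi1, -0.25 and -0.22 for Pfkl, -0.29 and -0.20 for Pfkm, -0.29 and -0.34 for Pfkp (without the shIRS2 and without the shControl library), and 0.26 for Pfkfb3.

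Hk1, Hk2, Pfkfb4 and Aldoa did not pass, with log2 differences of -0.16, 0.011, 0.067 and -0.17. The second Aldoa row (ENSMUSG00000114515, on the same strand next to ENSMUSG00000030695 on chromosome 7) averaged 1.59 CPM and had a log2 difference of -0.61 (adjusted p = 0.199). In lower glycolysis the only member to pass was Eno2, its rarest gene. Eno2 stood at 6.39 CPM in shIRS2 library 2 and 5.10 CPM in shControl library 2, against 10.7 and 10.4 CPM in shIRS2 libraries 1 and 3 and 8.54 and 10.6 CPM in shControl libraries 1 and 3. Both libraries numbered 2 were the lowest of the 6, and the log2 difference was -0.78 (SE 0.153, adjusted p = 0.00230), with the call lost without shControl library 2 at -0.69. Tpi1, Pgk1, Pgam1, Eno1 and Pkm had log2 differences of -0.12, -0.10, -0.052, -0.020 and -0.069, with adjusted p-values from 0.181 to 0.872. The 95% interval of Pgk1 ran from -0.25 to 0.040 and that of Eno1 from -0.17 to 0.13, so a decrease as large as that of Slc2a1 lies outside both.

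No member acting on the fate of pyruvate passed the test by number. Ldha had a log2 difference of -0.018 (SE 0.0713, adjusted p = 0.886) with an interval from -0.17 to 0.13. Pdk1 had -0.16 (SE 0.0703, adjusted p = 0.107) and Slc16a3 -0.072 (SE 0.0711, adjusted p = 0.503). The summed FPKM of lower glycolysis was 3343 FPKM in shIRS2 library 2 and 3259 FPKM in shControl library 2, against 3333 and 3643 FPKM in shIRS2 libraries 1 and 3 and 3305 and 3578 FPKM in shControl libraries 1 and 3. These sums hold Gapdh, whose level varied by library in its own way.

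The other hypoxia targets held 8 lower members of 11. Ndrg1 (chr15:66929318-66969640), a stress-induced gene with a role in differentiation, stood at 65.98 CPM in shIRS2 library 2 and 65.6 CPM in shControl library 2, against 181 and 120.3 CPM in shIRS2 libraries 1 and 3 and 146 and 132 CPM in shControl libraries 1 and 3. Its log2 difference of -1.10 (SE 0.0900, adjusted p = 4.67e-06) had the largest size among the called members. Ero1l (chr14:45283087-45318771) stood at 152 CPM in shIRS2 library 2 and 129 CPM in shControl library 2, against 371 and 278 CPM in shIRS2 libraries 1 and 3 and 255 and 289.7 CPM in shControl libraries 1 and 3. The log2 difference was -1.06 (SE 0.111, adjusted p = 0.000187). For both genes shIRS2 library 1 was the highest and both libraries numbered 2 the lowest.

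Vegfa (chr17:46016993-46032369) stood at 81.99 CPM in shIRS2 library 2 and 74.9 CPM in shControl library 2, against 181 and 139.6 CPM in shIRS2 libraries 1 and 3 and 140.2 and 148 CPM in shControl libraries 1 and 3. This gave a log2 difference of -0.93 (SE 0.0889, adjusted p = 1.44e-05). Adm, the vasodilator peptide adrenomedullin, stood at 107 CPM in shIRS2 library 2 and 84.8 CPM in shControl library 2, against 185 and 135 CPM in shIRS2 libraries 1 and 3 and 138 and 143 CPM in shControl libraries 1 and 3. For Adm the log2 difference was -0.62 (SE 0.0947, adjusted p = 0.000487). The 2 secreted factors of the list were thus lower together in both libraries numbered 2. Bnip3 (chr7:138890836-138909519) stood at 57.9 CPM in shIRS2 library 2 and 50.6 CPM in shControl library 2, against 108 and 90.5 CPM in shIRS2 libraries 1 and 3 and 94.3 and 79.7 CPM in shControl libraries 1 and 3. The log2 difference of Bnip3 was -0.74 (SE 0.0710, adjusted p = 1.33e-05).

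P4ha2, the second collagen prolyl hydroxylase subunit, stood at 69.3 CPM in shIRS2 library 2 and 60.5 CPM in shControl library 2, against 114 and 106 CPM in shIRS2 libraries 1 and 3 and 87.6 and 117 CPM in shControl libraries 1 and 3. Its log2 difference was -0.68 (SE 0.0954, adjusted p = 0.000215), while P4ha1 had -0.11 (SE 0.0677, adjusted p = 0.276). Kdm3a, a histone demethylase that needs oxygen, stood at 124 CPM in shIRS2 library 2 and 121 CPM in shControl library 2, against 177 and 136 CPM in shIRS2 libraries 1 and 3 and 168 and 134 CPM in shControl libraries 1 and 3. The test gave a log2 difference of -0.29 (SE 0.0646, adjusted p = 0.00539). Ankrd37, a small ankyrin repeat protein, stood at 2.37 CPM in shIRS2 library 2 and 2.78 CPM in shControl library 2, against 4.95 and 4.09 CPM in shIRS2 libraries 1 and 3 and 5.14 and 4.12 CPM in shControl libraries 1 and 3. Its log2 difference was -0.79 (SE 0.205, adjusted p = 0.0127), on few counts. The calls for Kdm3a and Ankrd37 were lost without either library numbered 2, where the log2 differences were -0.27 and -0.30 for Kdm3a and -0.69 and -0.89 for Ankrd37 (without the shIRS2 and without the shControl library). Higd1a, a mitochondrial protein, and Car9 did not pass, with log2 differences of -0.13 and -0.24.

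**Figure D4:**
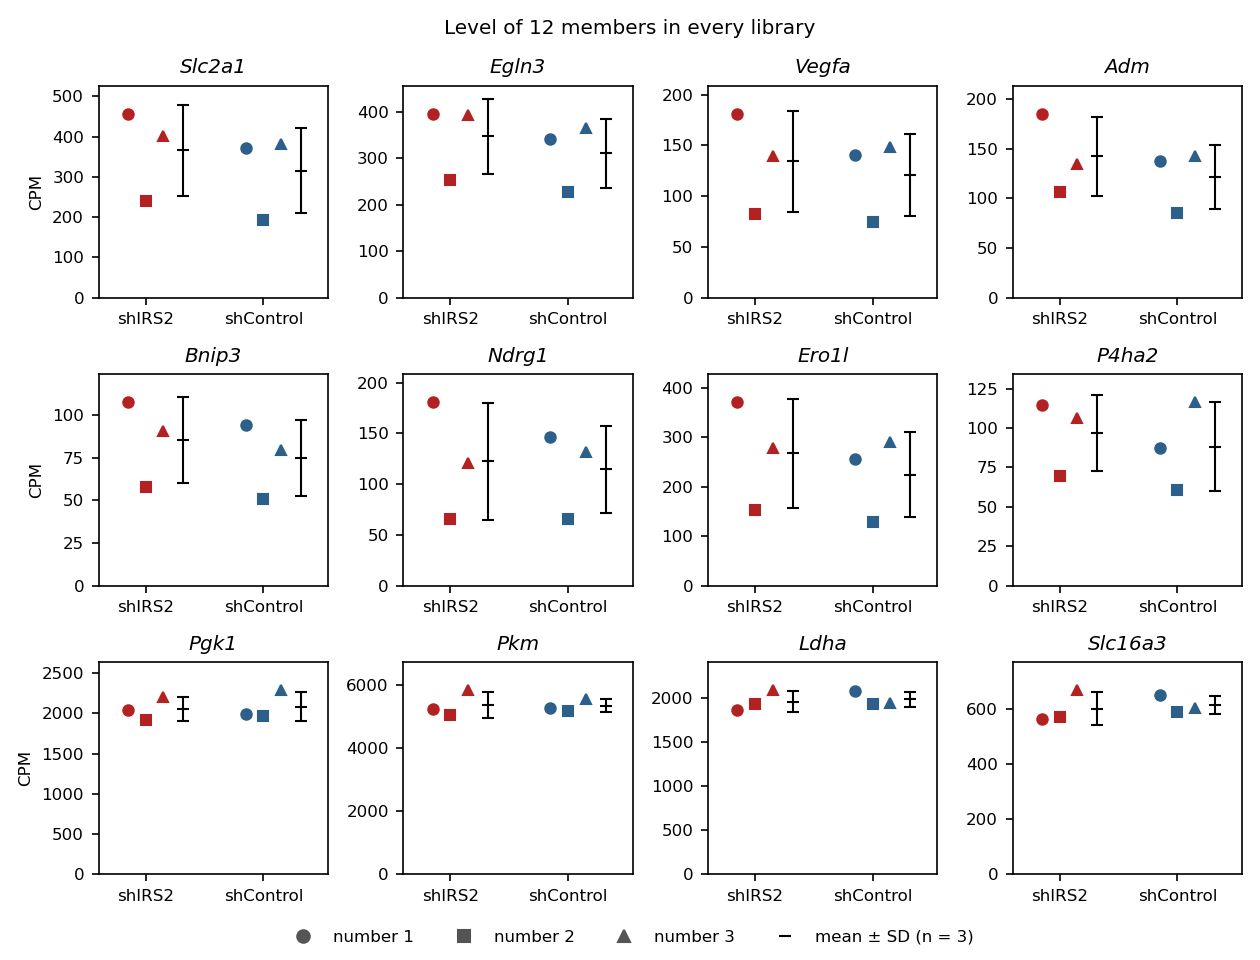
CPM of 12 members in every library, shIRS2 in red and shControl in blue, with the library number as marker shape and the mean ± SD of each group (n = 3) in black; each panel has its own axis from 0. In the upper 8 panels the squares (number 2) are the lowest points of both groups, as for Slc2a1 at 240.0 and 193 CPM, while in the lower 4 panels (Pgk1, Pkm, Ldha and Slc16a3) the 6 libraries lie close together.

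Within some families the shares of the paralogs differed by number. P4ha2 made up 19.6% in shIRS2 library 2 and 18.98% in shControl library 2, against 27.7% and 25.6% in shIRS2 libraries 1 and 3 and 25.1% and 26.8% in shControl libraries 1 and 3. Ndrg1 made up 31.97% in shIRS2 library 2 and 35.2% in shControl library 2, against 49.1% and 42.1% in shIRS2 libraries 1 and 3 and 46.4% and 46.5% in shControl libraries 1 and 3 of the 4 Ndrg genes. Both shares were lowest in the libraries numbered 2. Bnip3l, the paralog of Bnip3, was also lower, by a log2 difference of -0.30 (SE 0.0695, adjusted p = 0.00696), and Slc16a1, the paralog of Slc16a3, was higher, by 0.31 (SE 0.0585, adjusted p = 0.00184). The lactate exporter share of Slc16a3 was 47.5% in shIRS2 library 2 and 48.2% in shControl library 2, against 52.9% and 55.1% in shIRS2 libraries 1 and 3 and 55.7% and 53.4% in shControl libraries 1 and 3.

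Promoter windows were matched for 14 of the 16 members called lower in number 2, and the count leaves out Ndrg1 and Ero1l, which had the largest decreases. Of the 20 windows of these 14 members, 9 (45.0%) held ACGTG and 14 (70.0%) either motif, against 16 (55.2%) and 23 (79.3%) of 29 windows of the other tested members. Among the windows shown, which were chosen with the responses known, those of Ldha and Pgk1 hold ACGTG and that of Eno2 holds neither motif. Ldha and Pgk1 had differences near 0, and Eno2 was lower. Windows of 300 bases do not show whether a motif lies elsewhere, so no conclusion on motif and response is drawn. The counts are a description of the letters in these windows.

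Gapdh, the dehydrogenase between Tpi1 and Pgk1 (chr6:125161715-125166467), stood apart from every other member. Its counts were 3211, 3408 and 220 in shIRS2 libraries 1, 2 and 3, against 223, 331 and 3627 in shControl libraries 1, 2 and 3. That is 189, 207 and 14.1 CPM in shIRS2 libraries 1, 2 and 3, against 14.9, 16.7 and 205 CPM in shControl libraries 1, 2 and 3. The high and the low level cut across both the hairpin groups and the numbers. The log2 fold change by hairpin was 0.82 (SE 1.53, adjusted p = 1.00), and the difference by number was -0.56 (adjusted p = 0.903). Even the high level, 50.9 FPKM, was far below the neighbouring enzymes Tpi1 and Pgk1. Gapdh transcripts had near-identical copies (95% identity or more over at least 300 bases) at 77 other genes of the annotation, of which 74 are processed pseudogenes and 74 had counts. The copies summed to 86.8, 76.4 and 95.4 CPM in shIRS2 libraries 1, 2 and 3, against 105, 79.8 and 77.97 CPM in shControl libraries 1, 2 and 3. How the counting treated reads shared with these copies is not given here, so the Gapdh level is uncertain. Copies were found for 9 members in all, the others being Gpi1, Tpi1, Pgk1, Pgam1, Eno1, Pkm, Ldha and Bnip3. Among these copies, Pgk1-rs7 matched Pgk1 at 100% over 1255 bases and Pgam1-ps2 matched Pgam1 at 100% over 765 bases. Shared reads may affect the levels of these members too, which was not tested.

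A wider list of 75 other genes of hypoxia, glycolysis and their paralogs had 50 tested genes and 6 with no count. By hairpin group 0 of the 50 passed the adjusted threshold, and 35 were positive and 15 negative. The smallest p-values belonged to Stc1, a secreted glycoprotein induced by hypoxia, and Cited2, which competes with HIF for its coactivator. Stc1 stood at 17.4, 12.6 and 15.7 CPM in shIRS2 libraries 1, 2 and 3, against 11.3, 7.07 and 11.1 CPM in shControl libraries 1, 2 and 3. Every shIRS2 library lay above every shControl library, with a log2 fold change of 0.65 (SE 0.199, adjusted p = 1.00, and 0.125 with the replicate block). Cited2 stood at 627, 474 and 483 CPM in shIRS2 libraries 1, 2 and 3, against 458, 343 and 448 CPM in shControl libraries 1, 2 and 3. Its groups did not overlap either, with a log2 fold change of 0.36 (SE 0.135, adjusted p = 1.00, and 0.215 with the replicate block). In all 4 of the 50 genes (8%) had every shIRS2 library above the shControl libraries, against 2.75% of all genes, and 0 had every one below, against 3.77%.

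By number 20 of the 50 (40%) were lower in number 2, against 11.9% of all genes, and 5 (10%) were higher, against 11.6% of all genes. Ier3, an early stress gene, stood at 139.6 CPM in shIRS2 library 2 and 114 CPM in shControl library 2, against 245 and 206 CPM in shIRS2 libraries 1 and 3 and 242 and 223 CPM in shControl libraries 1 and 3, a log2 difference of -0.83 (SE 0.0803, adjusted p = 1.47e-05). Plod1, a collagen lysyl hydroxylase, had -0.54 (SE 0.0618, adjusted p = 4.5e-05), Hmox1, the heme oxygenase, -0.62 (SE 0.0756, adjusted p = 7.68e-05), and Gys1, the glycogen synthase of muscle and most tissues, -0.66 (SE 0.0833, adjusted p = 9.86e-05). All 4 were lower, as Slc2a1 and Vegfa were. Tfrc, the transferrin receptor, and Angptl4, an inhibitor of lipoprotein lipase, were higher, by 0.62 (SE 0.0604, adjusted p = 1.57e-05) and 1.72 (SE 0.160, adjusted p = 4.54e-05). Angptl4 stood at 36.2 CPM in shIRS2 library 2 and 37.6 CPM in shControl library 2, against 8.48 and 15.1 CPM in shIRS2 libraries 1 and 3 and 12.6 and 10.1 CPM in shControl libraries 1 and 3. Ddit4, an inhibitor of mTOR signalling that belongs to the list and is named here only after its values were seen, stood at 80.5 CPM in shIRS2 library 2 and 75.1 CPM in shControl library 2, against 267 and 213 CPM in shIRS2 libraries 1 and 3 and 211 and 264 CPM in shControl libraries 1 and 3. Its log2 difference of -1.59 is given as a description.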

How the data were processed

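Per the labels' protocols, RNA with an integrity number above 7 was made into strand-specific libraries and read as 150 bp paired ends. Reads were placed on mm10, as the submitters' processing notes list. No source used here names the aligner, the counter or its strand setting, so these are not given. The authors deposited raw read counts per gene and FPKM, which equal the count over the listed gene length and over 1 total per library (0.985 to 1.02 times the count sum). Table columns beginning NC were read as shControl and those beginning S as shIRS2, with the number of the title. This rests on the names alone, and no such column was left unused.

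Counts were tested in R 4.3.3 with edgeR 4.0.16 (filterByExpr by group, TMM, robust quasi-likelihood fit), two-sided, with Benjamini-Hochberg adjustment over all 13472 genes and a threshold of 0.05. Terms were the group alone by hairpin, and group plus number for the number. Standard errors come from the same fits. DESeq2 1.42.0 and limma 3.58.1 were alternatives, as were other size factors, no filter, pseudocounts of 1 and 0.1 and leaving out each library. The edgeR steps were tested on simulated data. Copies were searched with blastn 2.17.0 in GENCODE transcripts.

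The libraries are called biological triplicates in the design text, but every sample description carries one replicate number, so p-values cover only the spread between these libraries, which may be technical. Deviations from the group mean correlated at 0.167, 0.576 and 0.260 within the pairs numbered 1, 2 and 3, which was taken as pairing, although the crossed pairs of numbers 1 and 3 gave 0.199 and 0.189. The members and all lists were chosen with earlier results of these data known. All 39 members are named, with values in every library for members called in either comparison, for leading paralogs and for the smallest p-values, and other pathway genes by smallest p. The reads carry no molecular identifiers.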

Additional observations from a re-analysis of the deposited data

How the results depend on the processing

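The count of members called by hairpin group was 0 in every alternative. Over all genes that count was 1 with the replicate block, 4 with the block in DESeq2 and 6 with no filter on low counts. With the block no call was possible for a family of paralogs, since the sign-flip permutation test cannot go below p = 0.25. Differences had 1 sign in all 3 pairs in 6 families, and leaving out single libraries gave 0 to 3 families whose groups did not overlap. The F test of the number called 10 members and 781 genes in limma on log2(FPKM + 1) and 1609 genes in DESeq2, and 9 to 21 members and 798 to 3774 genes when single libraries were left out. For number 2 against numbers 1 and 3, 1920 genes were called in DESeq2, 1808 in limma, and 8 to 20 members and 808 to 3687 genes when single libraries were left out, with the lowest counts without shControl library 2 (8 members, 808 genes) and shIRS2 library 2 (11 members, 1081 genes). DESeq2 lost Pfkm and Ankrd37, limma lost Pfkm and Pfkp, and no called member changed sign.

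Log2 fold changes by hairpin group were small, and leaving out single libraries moved these across 0: Aldoa -0.075 to 0.036, Aldoa (second row) -0.26 to 0.41, Ankrd37 -0.29 to 0.19, Arnt -0.069 to 0.047, Bnip3 -0.0044 to 0.41, Egln1 -0.028 to 0.20, Egln3 -0.0041 to 0.35, Eno2 -0.044 to 0.45, Ero1l -0.048 to 0.54, Higd1a -0.062 to 0.040, Hk2 -0.027 to 0.078, Kdm3a -0.10 to 0.19, Ldha -0.050 to 0.030, Ndrg1 -0.28 to 0.41, P4ha2 -0.059 to 0.40, Pdk1 -0.0036 to 0.14, Pfkfb3 -0.15 to 0.14, Pfkl -0.032 to 0.17, Pfkm -0.060 to 0.14, Pgam1 -0.0072 to 0.069, Pgk1 -0.058 to 0.059, Pkm -0.039 to 0.054, Slc16a3 -0.10 to 0.026, Slc2a1 -0.019 to 0.45, Slc2a3 -0.22 to 0.13, Tpi1 -0.019 to 0.10, Vegfa -0.11 to 0.42. Differences by number that crossed 0 in the same way were Car9 -0.51 to 0.019, Eno1 -0.062 to 0.023, Gapdh -2.68 to 2.05, Hk2 -0.068 to 0.10, Ldha -0.065 to 0.035, Pgam1 -0.11 to 0.0076. Aldoa was 0.00044 by hairpin with no filter, and Gapdh was 0.10 by number with no group term and 0.15 in limma. Without both libraries numbered 2, an alternative chosen after seeing the data, Pgk1 was 0.0013, Pgam1 -0.0062, Gapdh -0.11, Higd1a 0.0060 and Pfkfb3 0.047 by hairpin. The cause was not tested. With 3 libraries a group, the median half-width of the 95% interval by hairpin was 0.29 on the log2 scale, which gives the precision of these values and is no limit of detection.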
